A study of Rattus norvegicus with 10 samples.

Results

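Cadherins and protocadherins are the calcium-dependent adhesion proteins studied here in the left hippocampus of 10 male rats of the TgF344-AD line, whose transgenes model Alzheimer disease. The members are the genes of the deposited count table whose symbol begins with Cdh and a digit or with Pcdh, without the endothelial cadherin gene Cdh5. The rule found 67 genes among 13686 symbols. The tested rats were 5 transgenic males that received BT-11, a compound that binds the LANCL2 protein, from 5 months of age for 6 months. Their controls were 5 transgenic males on plain rodent chow. All 10 were sampled at 11 months under anaesthesia with ketamine at 100 mg/kg plus xylazine at 10 mg/kg, and no wild-type rats enter any comparison, so every value is one of the transgenic hippocampus. RNA was sequenced in 1 library per sample as single reads of 50 bases. The labels number the libraries 1 to 5 in each group, and libraries 4 and 5 are also set against 1 to 3 below. That split was noticed in the expression of these libraries and no label calls it a batch.

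Cadherins hold neighbouring cells together by binding the same or a similar cadherin on the opposite membrane. The classical cadherins (type I and type II) connect through catenins to the actin cytoskeleton and place and stabilise synapses. The protocadherins do not bind the catenins in this way. The delta protocadherins are single genes with roles in axon growth and synapse formation. The alpha, beta and gamma protocadherins lie side by side in 3 gene clusters, and each neuron expresses its own mix of them, which lets a dendrite tell its own branches from those of other cells. In the alpha and gamma clusters every gene has its own first exon with its own promoter, spliced to constant exons that the whole cluster shares.

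The 67 members were 4 type I cadherins, 11 type II cadherins, 3 other cadherins, 4 delta-1, 4 delta-2 and 2 other protocadherins, and 15 alpha, 11 beta and 13 gamma protocadherins. Of these, 62 passed the filter on low counts, which needs a minimum count in about as many libraries as 1 group has. The 5 that did not pass were Cdh1, Cdh3, Cdh17, Cdh26 and Pcdh12. Cdh4, Pcdh1 and Pcdh10 were not analysed here. All 15 alpha gene models ended within 2 bases of position 30215897 and all 13 gamma gene models within 2 bases of 30971114 on chromosome 18 (build rn6, as listed), the ends of their shared exons. A read of 50 bases from a shared exon fits every gene of its cluster, and 40 members (the 39 clustered genes and Cdh18) had estimated counts that were not whole. The level of a single alpha or gamma gene therefore depends in part on how the counting divided such reads. The beta genes also had counts that were not whole, though Pcdhb21 had one in untreated replicate 4 alone. How far the beta levels depend on divided reads is not known.

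The libraries held 8984439 to 11301545 counts. Of the 10 listed markers of hippocampal neurons 9 were in the table and all 9 were tested, at a summed 855 to 1313 CPM (counts per 1000000 counts of the library) in BT-11 and 808 to 1160 CPM in untreated libraries. Among them the dentate granule cell markers Prox1 and C1ql2 had 21.6 and 33.9 CPM in untreated replicate 1 and 26.9 and 47.3 CPM in untreated replicate 2, and 52.2 to 92.3 and 48.2 to 89.8 CPM in the 8 other libraries. Wfs1, a marker of CA1 neurons, averaged 357 ± 104 CPM with BT-11 and 149 ± 77.3 CPM without (log2 fold change 1.25, adjusted p = 0.402 in edgeR). The part of these in the members' values was not tested. Choroid plexus markers, 10 of 10 in the table, summed to 8.32 to 30.5 CPM in BT-11 libraries and 9.52 to 3829 CPM in untreated ones, where replicates 2 and 5 held 3556 and 627 CPM of the transthyretin gene Ttr. The 12 meningeal markers summed to 73.6 to 99.4 CPM with BT-11 and 85.3 to 498 CPM without. The highest sum, in untreated replicate 2, held 285 CPM of Igf2 and 109 CPM of Igfbp2. Dcn, Lum, Ogn and Slc13a4 were also highest there, while Col1a1, Col1a2, Col3a1, Slc6a13, Aldh1a2 and Foxc1 were not. Of the thalamic markers (8 of 10 in the table), Prkcd reached 117 and 61.1 CPM in BT-11 replicates 2 and 4, against 9.68 to 13.4 CPM in the other 8 libraries, and Calb2 was also highest in that pair. The other 6 thalamic markers were not highest there, and Plekhg1 was lowest in BT-11 replicate 2, at 20.2 CPM. The thalamic markers summed to 82.9 to 210.4 CPM with BT-11 and 84.3 to 109 CPM without, and the 10 striatal markers to 447 CPM in BT-11 replicate 2 and 252 to 347 CPM elsewhere. Untreated replicates 1 and 2 held the least of the members, a summed 2500 and 2565 CPM, where the remaining untreated libraries had 2907 to 3012 CPM and the BT-11 libraries 2827 to 2922 CPM. The same pair of libraries was lowest in long transcripts: over the 25% of all tested genes with the longest transcripts, the median of log2(CPM + 1) centred per gene was -0.18 in untreated replicate 1 and -0.09 in untreated replicate 2, and -0.03 to 0.10 in the other 8. All 62 tested members were longer than the median transcript of 2229 bases, and 44 were among those longest 25%, a class in which 58.9% of genes had a positive log2 fold change. The part of transcript length in the members' values was not tested.

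Per transcript length, Pcdhgc3, a C-type gamma protocadherin expressed broadly in the brain, had the highest level of all members at 115 CPM per kilobase. The neural cadherin gene Cdh2 followed at 58.2 CPM per kilobase, then Cdh13, the membrane-anchored cadherin without a cytoplasmic tail, at 39.0. The delta protocadherins Pcdh9, Pcdh20 and Pcdh8 stood at 33.5, 32.6 and 31.9 CPM per kilobase, Pcdhga2 at 28.3, and the type II cadherin Cdh11 and the delta-2 gene Pcdh19 at 21.6 and 21.5. The other clustered genes were lower per length, from 0.341 for Pcdha1 to 16.5 for Pcdhga7. At the low end, Cdh17 had at most 4 and Cdh26 at most 2 counts in any library, so that a difference in either was not detectable at this depth.

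Within each cluster the level was unevenly divided. The shares are over the 15 alpha, 11 beta and 13 gamma genes of the count table. The beta and gamma symbols there skip numbers, so these shares may not be those of the whole clusters. Pcdhgc3 gave 43.5% ± 3.01 of the gamma cluster's CPM in BT-11 and 47.0% ± 3.63 in untreated hippocampi (SD, n = 5 each). Pcdhac2, a C-type alpha gene like Pcdhac1, gave 34.3% ± 3.10 of the alpha cluster with BT-11 and 37.2% ± 0.888 without. The beta cluster was led by Pcdhb9 (23.7% ± 1.44 and 26.4% ± 2.35) and Pcdhb5 (20.8% ± 1.51 and 20.1% ± 2.17). Alpha genes varied most between libraries of a group, with a median coefficient of variation of 27.0% where the counting error of the estimated counts gives 10.3%. The same 2 values were 17.2% and 13.0% for beta genes, and 15.8% and 4.31% for gamma genes. That counting error leaves out the division of shared reads, so the gap cannot be read as spread between rats alone.

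The promoters of the clustered genes are shown because the beta and the gamma genes each share letters there that few other promoters hold. RefSeq promoter windows (build GRCr8, 250 bases before to 50 after the start of the gene) were matched by symbol for 44 of the 67 members, among them 11 beta, 12 gamma and 1 alpha gene. The longest run of letters common to the 11 beta promoters on the gene's strand was GGTGGCGCTG, which stood in 0 of 12 gamma promoters and in 0.146% of all 33469 promoters (0.221% on either strand). It was picked from these 11 windows, which are among the 33469, so its presence in all 11 was set by the search. In the beta promoters these letters began 52 to 229 bases before the start. The windows below, all on the plus strand, belong to the beta genes with the smallest p for BT-11 (Pcdhb3 and Pcdhb5), to Pcdhb4, and to Pcdhb9, the leading one of the 11 beta genes, with the shared letters in capitals.
Pcdhb3, chr18:29285597-29285640: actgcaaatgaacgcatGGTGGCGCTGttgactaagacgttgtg
Pcdhb5, chr18:29302397-29302440: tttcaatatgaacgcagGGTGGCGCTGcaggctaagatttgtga
Pcdhb4, chr18:29292204-29292247: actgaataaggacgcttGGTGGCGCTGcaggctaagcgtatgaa
Pcdhb9, chr18:29379241-29379284: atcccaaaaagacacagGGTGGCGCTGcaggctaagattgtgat

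The gamma promoters shared less, and the longest run in at least 10 of the 12 was CGCTGTT. By that choice these letters stood in 10 of 12 gamma windows. They stood in 1 of 11 beta windows and in 0.983% of all promoters on the gene's strand (1.98% on either strand, where 11 of 12 gamma windows held them). In the gamma windows they began 20 to 235 bases before the start. No other group of promoters was searched for its own longest run. The shares of all promoters are therefore a description and no test that either run marks its cluster. CGCTGTT and GGTGGCGCTG share the letters CGCTG, which hold CGCT, the core of an element known from the clustered protocadherin promoters. CGCT alone occurs in 44.6% of all promoters on the gene's strand and so marks no cluster by itself. The windows below, on the plus strand of GRCr8, belong to the 3 gamma genes with an unadjusted p under 0.05 for BT-11 and to Pcdhga5, which was higher with BT-11 in libraries 4 and 5 and lower in 1 to 3.
Pcdhga3, chr18:29750312-29750355: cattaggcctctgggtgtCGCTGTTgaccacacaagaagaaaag
Pcdhga9, chr18:29815780-29815823: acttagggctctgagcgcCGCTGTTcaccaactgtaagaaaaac
Pcdhgb8, chr18:29839493-29839536: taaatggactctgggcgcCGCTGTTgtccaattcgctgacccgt
Pcdhga5, chr18:29770900-29770943: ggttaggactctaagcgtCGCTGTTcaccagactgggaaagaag

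Compared with untreated hippocampi, 0 of 62 members and 0% of all 11771 genes tested passed an adjusted p of 0.05 with BT-11 (edgeR's quasi-likelihood test with Benjamini-Hochberg adjustment over all genes), and DESeq2 called 40 genes and 0 members. Of the 62 members tested 41 had a positive log2 fold change (66.1%, against 48.2% of all genes) and 21 a negative one, with a median of 0.11 where that of all genes was -0.01. An unadjusted p under 0.05 was reached by 9 members (14.5%, against 9.09% of all genes), 8 of them higher (12.9%, against 4.04%) and 1 lower (1.61%, against 5.05%). The BT-11 and untreated libraries overlapped for every member tested, while they did not overlap for 1.12% of all genes. Untreated replicates 1 and 2, the libraries with the least of the members, were then left out, a choice made after their sums were seen. Leaving out the lowest controls lowers the members' fold changes by selection, so this fit is no independent check. In it 33 of the 62 were higher (53.2%, against 50.9% of all genes in that fit) and 4 had an unadjusted p under 0.05 (6.45%, against 7.28%). Cdh1 and Cdh3 were tested in that fit as well, and Cdh3, lower with BT-11, also had an unadjusted p under 0.05, which makes 5. The log2 fold changes of Pcdhb3, Pcdhgb8 and Cdh8, 0.49, 0.35 and 0.34 over all libraries, were then 0.30, 0.21 and 0.18. In whole hippocampus, fewer cells of a type and less RNA per cell cannot be told apart.

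**Figure D1:**
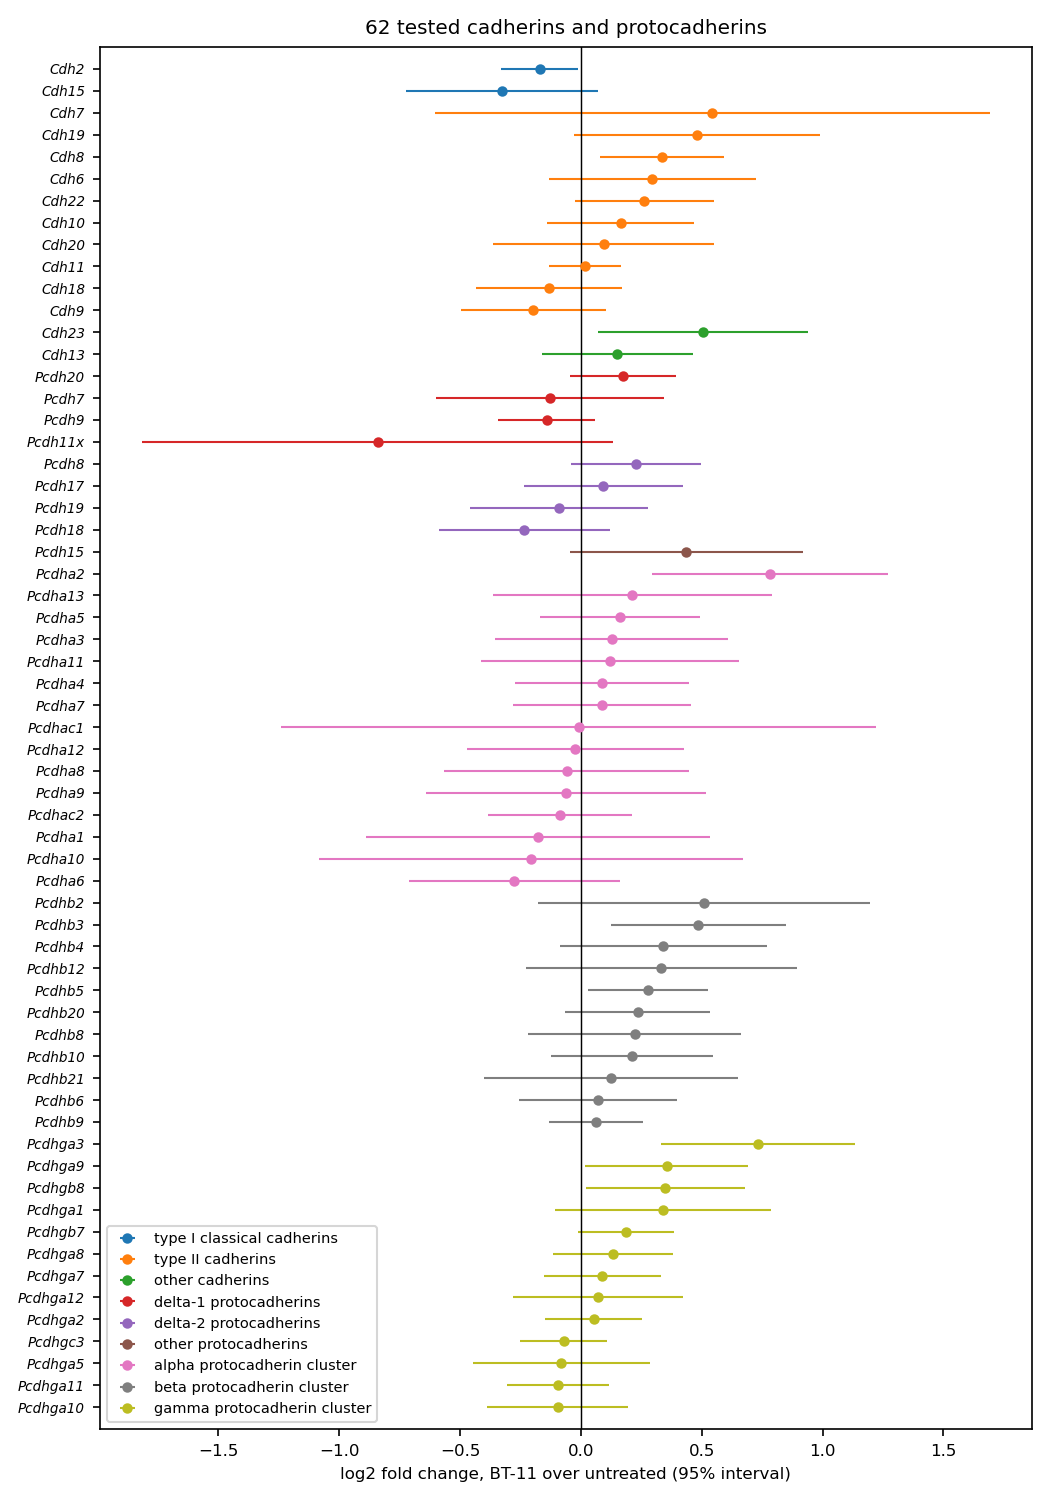
Log2 fold change of each of the 62 tested members, BT-11 over untreated, with the 95% interval of the edgeR fit, coloured by subfamily and ordered within it (n = 5 libraries each). The 11 beta genes all lie above 0, and Pcdha2 and Pcdhga3 have the values farthest above 0 whose interval leaves out 0.

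Gamma protocadherins regulate, in mice, dendrite self-avoidance and the survival of interneurons. Of the 13 genes 9 were higher (69.2%, against 48.2% of all genes) and 4 lower, with a median log2 fold change of 0.09. The sum of the 13 averaged 1179 ± 32.2 CPM with BT-11 and 1136 ± 71.6 CPM without (SD, n = 5 each). Pcdhga3 (chromosome 18, 30820151 to 30971114 in rn6 as listed, plus strand) had the smallest p of all members. It stood at 46.0, 39.7, 57.2, 45.6 and 45.5 CPM in BT-11 replicates 1 to 5, against 28.9, 17.9, 40.1, 22.0 and 30.7 CPM in untreated ones. Only untreated replicate 3 reached into the BT-11 range, where it lay just above BT-11 replicate 2. The log2 fold change was 0.73 ± 0.185 (SE), which did not pass the test (adjusted p = 0.402 in edgeR). Without untreated replicate 3 the adjusted p was 0.0447 in edgeR. That fit called 62 of the 11851 genes tested without this library, this 1 member among them. Leaving out the control highest in Pcdhga3 raises its fold change by selection, so this fit is no independent check. As a share of the 13 listed gamma genes, Pcdhga3 made up 3.97% ± 0.517 with BT-11 and 2.44% ± 0.668 without.

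Pcdhgb8 had 93.7, 72.5, 70.7, 76.4 and 84.6 CPM in BT-11 libraries, against 42.5, 60.8, 88.0, 63.1 and 56.1 CPM in untreated libraries. Here too untreated replicate 3 was the 1 control inside the BT-11 range, and the log2 fold change was 0.35 ± 0.152 (SE; adjusted p = 0.528 in edgeR). Pcdhga9 had 27.9, 23.0, 18.7, 23.4 and 15.5 CPM with BT-11, against 13.0, 19.1, 15.1, 19.8 and 17.4 CPM without. Its groups overlapped over most of the untreated range (log2 fold change 0.35 ± 0.155, adjusted p = 0.531 in edgeR). Pcdhgb7, Pcdhga1, Pcdhga8, Pcdhga7, Pcdhga12 and Pcdhga2 had values of 0.19, 0.34, 0.13, 0.09, 0.07 and 0.05. The 4 with negative values, Pcdhga10, Pcdhga11, Pcdhga5 and Pcdhgc3, lay between -0.10 and -0.07. Without BT-11 replicate 3 the value of Pcdhga1 was 0.23. For the abundant Pcdhgc3 the 95% interval ran from -0.25 to 0.11.

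Beta protocadherins are single-exon genes whose proteins have no shared cytoplasmic part. All 11 beta genes had a positive log2 fold change (against 48.2% of all genes), with a median of 0.23. Of the 11, 2 had an unadjusted p under 0.05 in edgeR (against 9.09% of all genes). The sum of the 11 was 82.3, 86.3, 84.5, 90.4 and 95.2 CPM in BT-11 replicates 1 to 5, against 64.0, 64.3, 79.6, 81.1 and 85.4 CPM in untreated ones. The groups overlapped in untreated replicate 5, which exceeded BT-11 replicates 1 and 3, and untreated replicates 1 and 2 lay far below the rest. Without that pair, an omission chosen for its low values, 8 of 11 beta genes were higher (against 50.9% of all genes), and without untreated replicate 2 alone 9.

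Pcdhb3 (chromosome 18, 30381322 to 30383877 in rn6, plus strand) had 7.58, 5.96, 5.81, 7.76 and 6.92 CPM with BT-11, against 3.82, 3.63, 4.81, 6.01 and 5.75 CPM without. Untreated replicate 4 reached above the 2 lowest BT-11 libraries, and the log2 fold change was 0.49 ± 0.167 (SE; adjusted p = 0.454 in edgeR). Pcdhb5 had 16.4, 18.5, 16.8, 17.7 and 22.0 CPM with BT-11, against 14.6, 12.1, 16.6, 16.9 and 14.6 CPM without. Again untreated replicates 3 and 4 overlapped the lower BT-11 libraries (0.28 ± 0.114, adjusted p = 0.512 in edgeR). Pcdhb2 had 0.51, Pcdhb4 0.34 and Pcdhb12 0.33, and the other 6 lay between 0.06 for Pcdhb9 and 0.23 for Pcdhb20. Without untreated replicate 1 the value of Pcdhb2 was 0.30.

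Alpha protocadherins take part, in mice, in the spread of serotonergic axons. The alpha genes did not lean to either side as a cluster, with 7 higher, 8 lower and a median of -0.01, and their sum averaged 188 ± 18.7 CPM with BT-11 and 183 ± 28.0 CPM without (SD, n = 5 each). Pcdha2 (chromosome 18, 29960072 to 30215897 in rn6, plus strand) was the exception. It had 9.57, 9.23, 9.55, 13.2 and 13.2 CPM in BT-11 libraries, against 3.35, 6.38, 7.25, 5.04 and 9.40 CPM in untreated libraries. Only untreated replicate 5 reached the lowest BT-11 library, and the log2 fold change was 0.78 ± 0.225 (SE; adjusted p = 0.430 in edgeR). Pcdha2 made up 5.80% ± 0.679 of the alpha cluster with BT-11 and 3.43% ± 1.13 without. The leading gene of the cluster, Pcdhac2, had 58.1, 48.4, 66.5, 76.4 and 74.7 CPM with BT-11, against 57.7, 57.1, 67.1, 80.4 and 78.9 CPM without, a log2 fold change of -0.09 ± 0.137. In both groups its 2 highest libraries were replicates 4 and 5.

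**Figure D2:**
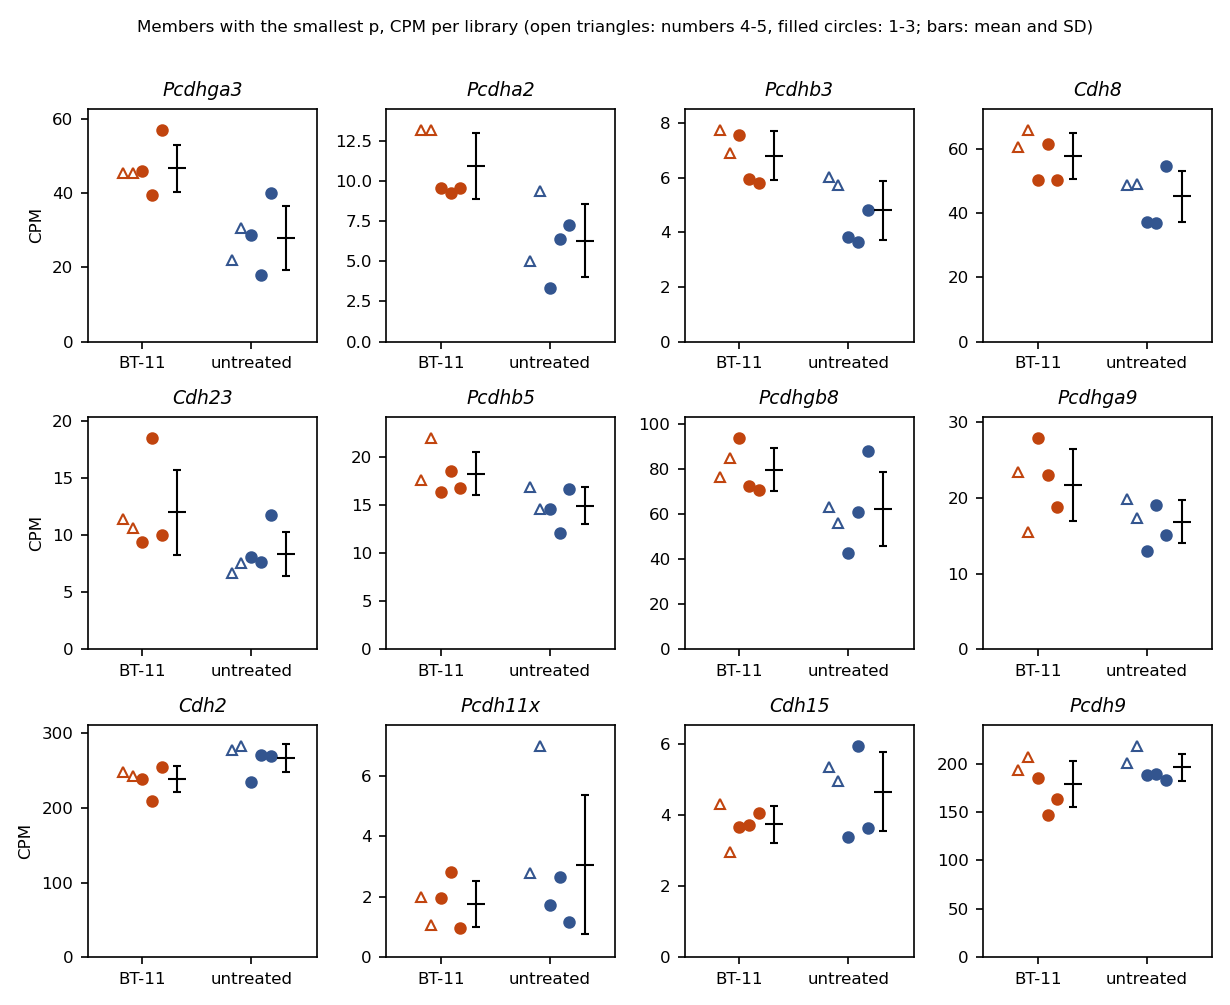
CPM per library of 12 members, BT-11 at the left and untreated at the right of each panel, with open triangles for replicates 4 and 5, filled circles for 1 to 3, and the mean with SD beside them (n = 5 each). The first 8 panels are the members higher with BT-11 at an unadjusted p under 0.05 and the last 4 are lower ones, and in all 12 the groups overlap.

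Of the 4 type I cadherins 2 were tested, Cdh2 and Cdh15, and both had negative log2 fold changes with BT-11. Cdh2, which encodes N-cadherin, the main classical cadherin of hippocampal synapses (chromosome 18, 8146971 to 8366026 in rn6, minus strand), had 239, 210, 255, 248 and 243 CPM in BT-11 libraries, against 235, 272, 270, 277 and 283 CPM in untreated libraries. The 4 untreated libraries other than replicate 1 lay above every BT-11 library. The log2 fold change was -0.17 ± 0.0727 (SE), which did not pass the test (adjusted p = 0.520 in edgeR), and this was the 1 member lower at an unadjusted p under 0.05. Cdh15, the M-cadherin of muscle that granule neurons of the cerebellum also use, averaged 3.74 ± 0.513 CPM with BT-11 and 4.65 ± 1.11 CPM without (-0.33 ± 0.183, adjusted p = 0.623 in edgeR). The epithelial cadherin genes Cdh1 and Cdh3 did not pass the filter, and Cdh1 averaged 0.832 ± 0.586 CPM with BT-11 and 0.617 ± 0.667 CPM without. Cdh3 had 0.357 to 1.00 CPM with BT-11 and 0.872, 8.15, 0.856, 1.22 and 2.74 CPM without, so that its highest libraries were untreated replicates 2 and 5, the pair with the choroid plexus markers.

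Type II cadherins mark particular neuron types and their circuits. Of the 10 tested, 8 were higher (80%, against 48.2% of all genes) and 2 lower with BT-11, with a median log2 fold change of 0.21. Cdh8 (chromosome 19, 6031935 to 6422402 in rn6, plus strand) had 50.1, 61.4, 50.1, 60.5 and 65.9 CPM with BT-11, against 37.2, 36.8, 54.5, 48.6 and 49.0 CPM without. Untreated replicate 3 alone reached above the lowest BT-11 libraries, and the log2 fold change was 0.34 ± 0.118 (SE; adjusted p = 0.458 in edgeR). Cdh9, a cadherin that in mice builds the synapses of dentate mossy fibres on CA3 neurons, averaged 52.4 ± 10.7 CPM with BT-11 and 59.8 ± 7.21 CPM without, and Cdh10 45.1 ± 8.85 and 39.9 ± 5.15 CPM. Cdh11 averaged 113 ± 7.98 and 111 ± 6.29 CPM, and the 95% interval of its log2 fold change ran from -0.13 to 0.16. Cdh6 had 0.30, Cdh22 0.26, Cdh19 0.48 and Cdh20 0.10, and Cdh18 had -0.13. Without BT-11 replicate 2 the values of Cdh9 and Cdh10 were -0.09 and 0.27, that of Cdh10 was 0.10 without BT-11 replicate 3, and without untreated replicate 5 that of Cdh6 was 0.48. Cdh7 stood at 8.73 and 6.40 CPM in BT-11 replicates 2 and 4, the pair highest in the thalamic gene Prkcd but not in most other thalamic markers. It stood at 1.25 to 2.14 CPM in the remaining BT-11 libraries, against 0.749 to 3.81 CPM in untreated ones. The part of the marker differences between these libraries in this value was not tested.

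Among the remaining cadherins, Cdh23, the tip-link cadherin of hair cells, had 9.46, 18.6, 10.1, 11.4 and 10.6 CPM with BT-11, against 8.07, 7.71, 11.8, 6.68 and 7.61 CPM without. BT-11 replicate 2 stood above all others and untreated replicate 3 was the 1 control within the BT-11 range (0.51 ± 0.201, adjusted p = 0.499 in edgeR), and without BT-11 replicate 2 the log2 fold change was 0.31. Its partner in the tip link, Pcdh15, averaged 6.27 ± 1.45 CPM with BT-11 and 4.60 ± 1.41 CPM without (0.44 ± 0.222). Cdh13 averaged 139 ± 16.4 and 124 ± 28.8 CPM, and its log2 fold change of 0.15 turned to -0.04 without untreated replicates 1 and 2, and was 0.04 without replicate 1 alone and 0.25 without untreated replicate 3.

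Delta protocadherins showed no common direction. Of the delta-1 genes, Pcdh20 was higher, at 180 ± 21.5 CPM with BT-11 and 158 ± 20.2 CPM without (SD, n = 5 each), and Pcdh9, Pcdh7 and Pcdh11x had negative values of -0.14, -0.13 and -0.84. The value of Pcdh9 was -0.07 without BT-11 replicate 2, that of Pcdh20 was 0.10 without BT-11 replicate 5, and that of Pcdh7 turned to 0.03 without untreated replicate 4 or 5. The value of the X-linked Pcdh11x rested on untreated replicate 5, which held 6.99 CPM, against 1.18 to 2.78 CPM in the remaining untreated and 0.968 to 2.81 CPM in the BT-11 libraries. Without that library it was -0.26. Of the delta-2 genes, Pcdh8, an activity-regulated protein also called arcadlin, averaged 101 ± 10.2 CPM with BT-11 and 85.4 ± 17.5 CPM without, and Pcdh17 76.2 ± 5.30 and 70.9 ± 19.1 CPM. Pcdh19, the gene of an X-linked epilepsy in humans, averaged 86.8 ± 14.8 and 92.0 ± 23.8 CPM, and Pcdh18 6.99 ± 1.51 and 8.13 ± 1.25 CPM. The log2 fold change of Pcdh8 was 0.15 without untreated replicate 1, and that of Pcdh18 was -0.14 without BT-11 replicate 1.

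Libraries 4 and 5 of both groups together were set against libraries 1 to 3, 4 against 6, as a description without a test. Of the 62 members 45 had a higher level in libraries 4 and 5 (72.6%, against 48.2% of all genes), by a median log2 difference of 0.14 where that of all genes was -0.01 and that of the 25% with the longest transcripts 0.10. All 10 type II cadherins, all 4 delta-1 protocadherins and all 11 beta protocadherins were higher there, while 10 of 13 gamma genes were lower. Some of these differences were near 0. Those of Cdh9 and Pcdh20 were 0.017 and 0.055, and as log2 ratios of mean CPM both turned negative in single omissions. The gamma median was -0.05, and Pcdhgc3 was higher at 0.07. The gamma sum averaged 1161 ± 25.6 CPM in libraries 4 and 5 and 1155 ± 73.8 CPM in libraries 1 to 3 (SD). The 4 and 6 libraries did not overlap for 4 members (6.45%, against 9.8% of all genes), which is below the background share. These 4 were Pcdh7, Pcdh9, Pcdha8 and Pcdhac2, all with the higher level in libraries 4 and 5, the direction of 5.94% of all genes, while 0 members and 3.87% of all genes had it the other way.

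Pcdh7, also called NF-protocadherin, had 36.9 and 33.1 CPM in BT-11 libraries 4 and 5 and 49.3 and 47.9 CPM in untreated libraries 4 and 5. In libraries 1 to 3 it had 30.4, 31.9 and 25.1 CPM with BT-11 and 21.0, 24.8 and 27.5 CPM without. Both groups thus had their high values at the same numbers, and the step was larger in untreated rats (log2 difference 0.62 over both). Pcdhac2 averaged 77.6 ± 2.56 CPM in libraries 4 and 5 and 59.1 ± 6.95 CPM in libraries 1 to 3 (SD, n = 4 and 6), Pcdh9 205 ± 10.7 and 176 ± 17.0 CPM, and Pcdha8 8.57 ± 0.515 and 5.93 ± 1.49 CPM. The log2 differences were 0.38, 0.21 and 0.53. Pcdhac1 had the largest difference of all members at 1.20, from 5.56, 5.67, 6.90 and 1.99 CPM in libraries 4 and 5 and 0.890 to 4.92 CPM in libraries 1 to 3, which overlap. Other large differences upward were those of Pcdh11x at 0.64, Pcdhb2 at 0.62 and Pcdha3 at 0.52. The difference of Pcdh11x rested on untreated replicate 5, without which the log2 ratio of its mean CPM was 0.05. Downward they were those of Pcdha1 at -0.71, Pcdha9 at -0.47, Pcdhga12 at -0.36, Cdh23 at -0.28, Pcdhga1 at -0.16 and Pcdhga5 at -0.14. The difference of Cdh23 was -0.05 without BT-11 replicate 2, as a log2 ratio of mean CPM. On that scale single omissions gave -0.007 to -0.35 for Pcdhga1 and -0.05 to -0.25 for Pcdhga5, and Pcdha1 was at -1.04 without untreated replicate 4.

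**Figure D3:**
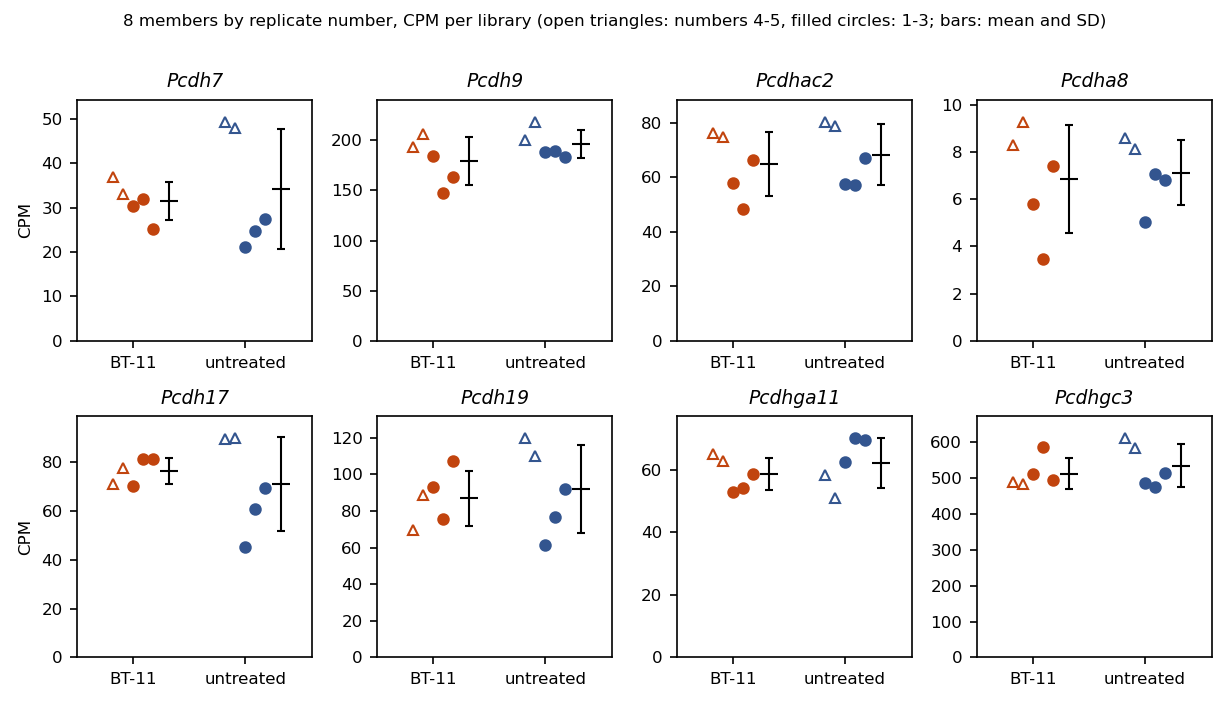
CPM per library of 8 members, BT-11 at the left and untreated at the right of each panel, with open triangles for replicates 4 and 5, filled circles for 1 to 3, and the mean with SD beside them (n = 5 each). Pcdh7, Pcdh9, Pcdhac2 and Pcdha8 have their triangles above the circles in both groups, while in Pcdh17 and Pcdh19 the triangles stand high in the untreated group alone.

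In untreated rats libraries 4 and 5 did not overlap libraries 1 to 3 for 26 of 62 members (41.9%, against 43.5% of all genes), and in BT-11 rats for 18 (29.0%, against 30.4%). The members thus followed the number sets about as often as other genes did. Pcdh17 had 89.5 and 89.7 CPM in untreated libraries 4 and 5 and 45.2, 60.7 and 69.3 CPM in untreated libraries 1 to 3, a full separation. In BT-11 rats it had 71.0 and 77.3 CPM in libraries 4 and 5 and 70.2, 81.2 and 81.0 CPM in libraries 1 to 3, with no such order.

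**Figure D4:**
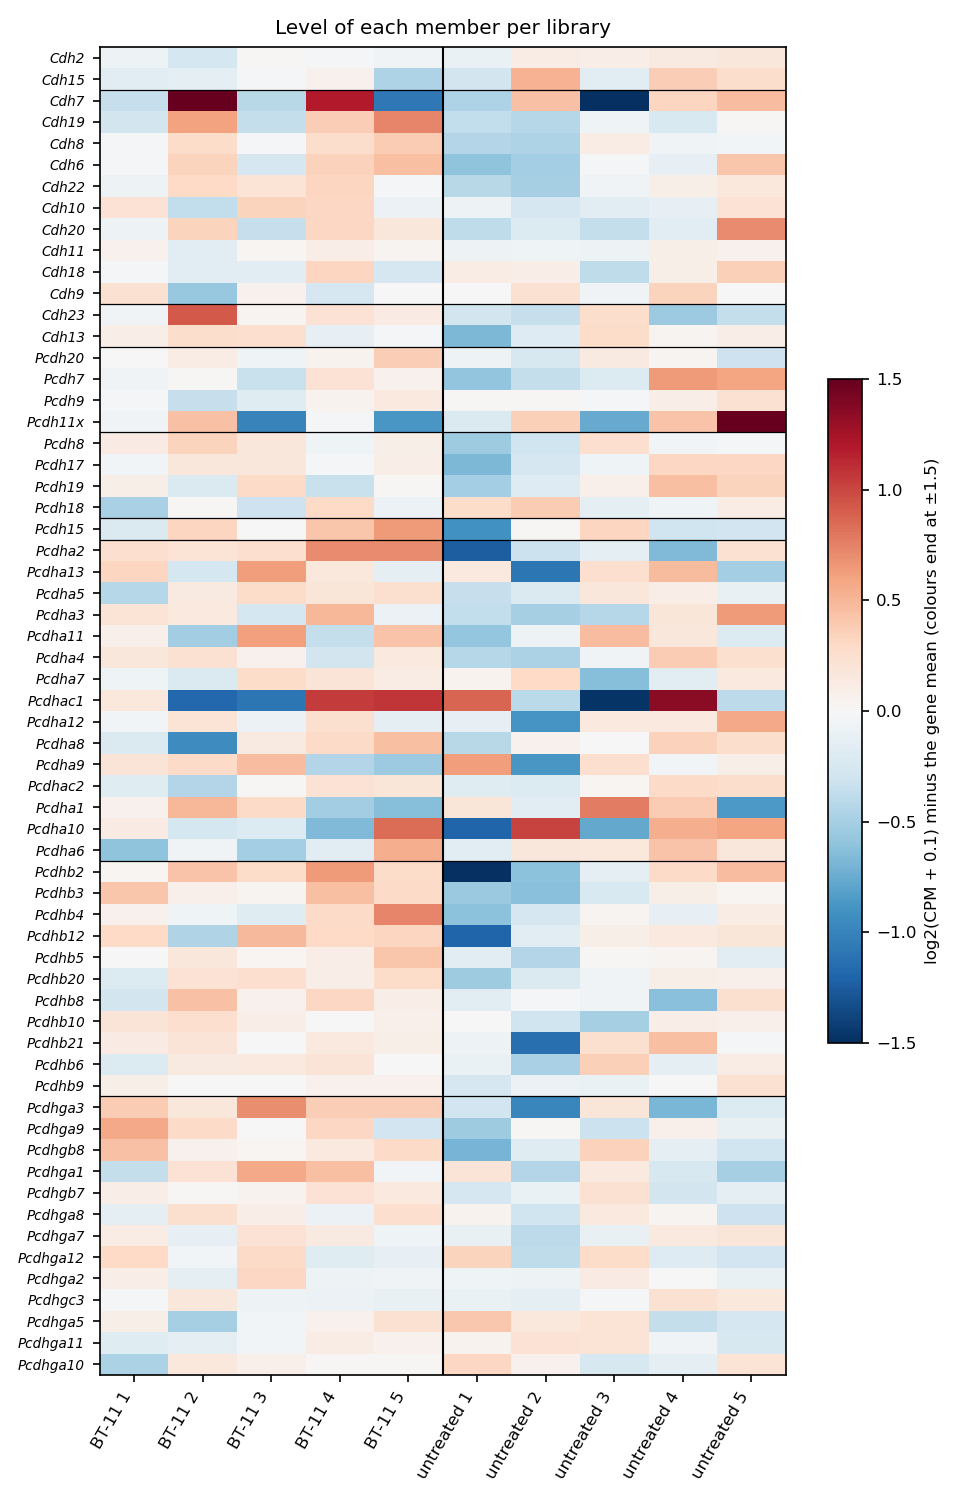
Level of each of the 62 tested members in each library, as log2(CPM + 0.1) minus the gene's mean over all 10 libraries, BT-11 libraries at the left and untreated at the right, with subfamilies parted by lines. Red is above and blue below the gene's mean, and untreated replicates 1 and 2, with the lowest summed levels of 2500 and 2565 CPM, are mostly blue.

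The BT-11 difference was then fitted within each set of numbers. In libraries 4 and 5, 2 rats against 2, edgeR's quasi-likelihood test called 6 of the 62 members at an adjusted p of 0.05 (9.68%, against 4.02% of all genes), and 19 had an unadjusted p under 0.05 (30.6%, against 18.6%). In libraries 1 to 3, 3 rats against 3, it called 0 members and 0% of all genes, while 12 members had an unadjusted p under 0.05 (19.4%, against 7.57%). In libraries 4 and 5, 34 members were higher with BT-11 (54.8%, against 51.3% of all genes), and in libraries 1 to 3, 47 were (75.8%, against 50.3%). Libraries 4 and 5 were the closest pair in each group, with a chi-square per degree of freedom of 4.5 in BT-11 and 7.09 in untreated rats. Other pairs reached 20.6 in BT-11 and 32.5 in untreated rats. With 2 libraries a group there is little hold on the spread.

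The 6 members called in libraries 4 and 5 were Pcdhga3 at a log2 fold change of 0.78 ± 0.143 (SE; adjusted p = 0.0269 in edgeR), Pcdhgb8 at 0.44 ± 0.0908 (adjusted p = 0.0336), Pcdhgb7 at 0.38 ± 0.0815 (adjusted p = 0.0376), Cdh8 at 0.38 ± 0.0845 (adjusted p = 0.0440), Pcdh7 at -0.47 ± 0.0933 (adjusted p = 0.0282) and Pcdhgc3 at -0.30 ± 0.0679 (adjusted p = 0.0466). In libraries 1 to 3 the values were 0.71 for Pcdhga3, 0.30 for Pcdhgb8, 0.07 for Pcdhgb7 and 0.32 for Cdh8, all of the same sign. They were 0.24 for Pcdh7 and 0.10 for Pcdhgc3, of the opposite sign. Pcdha2 was higher in both sets without a call in either, at 0.85 in libraries 4 and 5 and 0.73 in libraries 1 to 3.

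Over all members 23 of 62 had opposite signs in the sets (37.1%, against 48.1% of all genes). The test of the difference between the sets, as an interaction of treatment and number set over all 10 libraries, called 0 members and 0% of all genes in edgeR, with 10 members at an unadjusted p under 0.05 (16.1%, against 10.3%). For 27 of 62 members (43.5%, against 50.6% of all genes) the fold change was larger in libraries 4 and 5 than in 1 to 3. The smallest p-values were those of Pcdhga11 and Pcdh7, both with an adjusted p of 0.269. The fold change of Pcdhga11 was 0.53 ± 0.125 larger in libraries 4 and 5 than in 1 to 3, where its values were 0.23 and -0.29. For Pcdh7 the interaction was -0.72 ± 0.171, a smaller fold change in libraries 4 and 5. Pcdhga5 had 0.46 in libraries 4 and 5 and -0.40 in 1 to 3, Pcdh17 -0.27 and 0.40, Pcdha4 -0.36 and 0.45, and Pcdh19 -0.53 and 0.26. Pcdhgc3, Pcdh11x, Pcdha3 and Pcdhga7 were the other 4 members, all with the smaller value in libraries 4 and 5. Without untreated replicate 3 the interaction called 4 members (6.45%, against 2.12% of all genes tested in that fit, 251 genes), Cdh13, Pcdh17, Pcdh7 and Pcdh8. That fit keeps untreated replicates 1 and 2, the libraries with the least of the members, as the only untreated ones among libraries 1 to 3.

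**Figure D5:**
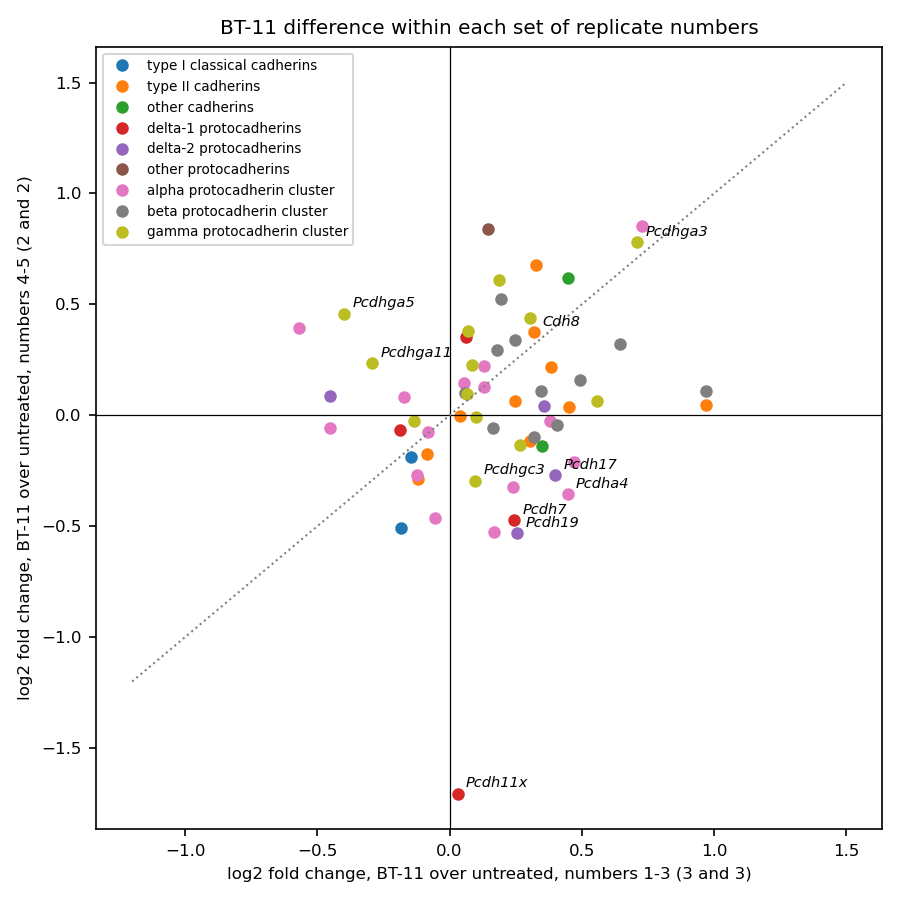
Log2 fold change of each tested member, BT-11 over untreated, in libraries 4 and 5 (vertical axis, 2 rats each) against libraries 1 to 3 (horizontal axis, 3 rats each), coloured by subfamily, with a dotted line where both are equal. Points at the upper left and lower right of the origin are the 23 members of opposite sign (37.1%, against 48.1% of all genes), among them Pcdh7, Pcdh17, Pcdh19, Pcdhga5 and Pcdhga11, while Pcdhga3 and Cdh8 lie near the line.

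Of the partners of the cadherins 0 passed an adjusted p of 0.05 with BT-11 in edgeR, as was so for all genes tested. Of 10 catenins, which tie classical cadherins to actin, 8 were in the table, and 4 were higher and 4 lower. Of these, 0 had an unadjusted p under 0.05 in edgeR (against 9.09% of all genes), and the median log2 fold change was -0.02. Ctnna2, the neural alpha-catenin, had 181, 188, 188, 173 and 186 CPM with BT-11, against 156, 155, 184, 166 and 174 CPM without (0.12 ± 0.0625). Ctnnb1, which encodes beta-catenin, averaged 224 ± 14.9 CPM with BT-11 and 229 ± 28.5 CPM without (SD, n = 5 each), and Ctnnd2, the neural delta-catenin, 252 ± 12.1 and 271 ± 22.4 CPM.

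Of the wider cadherin superfamily (Fat, Dachsous, Celsr, calsyntenin and related genes), 13 of 15 in the table were tested. With BT-11, 5 were higher and 8 lower, and 0 had an unadjusted p under 0.05 in edgeR (against 9.09% of all genes). Between the number sets 12 of these 13 had the higher level in libraries 4 and 5, with a median log2 difference of 0.28, and 5 did not overlap, Fat3, Celsr2, Clstn1, Clstn2 and Clstn3. Of all genes 48.2% were higher there and 9.8% did not overlap, and the genes with the longest transcripts had a median difference of 0.10. Fat3, a giant cadherin of dendrites, had 29.9, 29.7, 25.6 and 42.9 CPM in libraries 4 and 5 and 12.9 to 21.0 CPM in libraries 1 to 3. Of 10 junction partners and processing genes 5 were higher and 5 lower with BT-11. Nectin1, an immunoglobulin-type adhesion gene, was the 1 of 10 with an unadjusted p under 0.05 (against 9.09% of all genes). It had 101, 88.4, 109, 110 and 106 CPM with BT-11, against 113, 120, 118, 137 and 135 CPM without. The groups thus did not overlap, as for 1.12% of all genes (-0.29 ± 0.0801, adjusted p = 0.412 in edgeR). Adam10, the protease that sheds the N-cadherin ectodomain, averaged 98.8 ± 8.19 CPM with BT-11 and 96.0 ± 13.9 CPM without. Ctcf, the looping factor of the protocadherin promoters, averaged 98.0 ± 4.49 and 93.8 ± 9.57 CPM.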

How the data were processed

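Per the labels' protocols, libraries were strand-specific and sequenced on a HiSeq3000. Build rn6, DESeq2, Partek, STAR 2.7.9a and bcl2fastq 2.19.1.403 are named in the submitters' processing notes; how reads were counted, with which strand setting and annotation, is not given in the sources used here. The authors deposited estimated counts per gene model (83.4% of values whole within 1e-06), and 10 columns of a second, normalized table were not used.

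Estimated counts were summed per symbol (14834 lines, 13686 symbols; each member has 1 line), rounded and fitted in edgeR 4.0.16 (R 4.3.3) with TMM, filterByExpr by group and the robust quasi-likelihood test, two-sided, with Benjamini-Hochberg adjustment over all 11771 genes tested. CPM use the library's total. DESeq2 1.42.0 and limma 3.58.1 were alternatives. No label says that the rats are littermates or independent beyond being separate samples, so p-values measure the spread between these samples. Intervals cover counting error and spread, not amplification.

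Named members are the 6 with the smallest p and the 6 with the largest number-set difference in each direction, the 8 of highest CPM, those called in any comparison and a fixed set; others are given in passing. Members and lists were chosen with earlier results of these data known.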

Additional observations from a re-analysis of the deposited data

Results flagged for a closer look

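Among the 36 named members, 7 of 72 groups of 5 libraries held a library far from the other 4, by Dixon's criterion of 0.71 for the gap over the range; chance flags about 1 in 20 groups. BT-11 replicate 2 stood apart 3 times, with 98.8 CPM of Cdh11 (113.6 to 119.3 CPM in the 4 others), 18.56 CPM of Cdh23 (9.46 to 11.4) and 588.5 CPM of Pcdhgc3 (483 to 510.4). It also held the highest sums of the 8 thalamic markers (210.4 CPM, against 82.9 to 154 CPM in the 9 others) and of the 10 striatal markers (447 CPM, against 252 to 347). Prkcd alone held 117 of the 210.4 CPM. Of the thalamic markers Prkcd and Calb2 were highest there and the others were not, with Plekhg1 lowest. The part of the markers in these values was not tested. Untreated replicate 5 stood apart with 1.77 CPM of Cdh1 (0.107 to 0.550 in the 4 others), which is 20 counts, and with 6.99 CPM of Pcdh11x (1.18 to 2.78). Untreated replicate 1 held 234.6 CPM of Cdh2 (269.8 to 283.4 CPM in the others), and untreated replicate 3 held 11.76 CPM of Cdh23 (6.68 to 8.07).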

How the results depend on the processing

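Over all 10 libraries edgeR called 0 genes, DESeq2 40 and the fit of numbers 4 and 5 alone 479, with 0 to 62 when each library was left out in turn. Members called were 0, and 0 to 1 over single omissions. In numbers 4 and 5 alone they were 6 (against 4.02% of all genes), namely Pcdhga3, Pcdhgb7, Pcdhgb8, Cdh8, Pcdh7 and Pcdhgc3, with the values given above. Members at an unadjusted p under 0.05 were 9 (against 9.09% of all genes), and 5 to 13 over single omissions. In numbers 4 and 5 alone they were 20 (against 18.6% of all genes), in a fit that also tested Cdh1 and Cdh3. Without untreated replicates 1 and 2, an omission chosen after seeing the data, they were 5 (against 7.28% of all genes). That fit also tested Cdh1 and Cdh3. Interaction calls among members were 0 to 4 over single omissions, with the 4 in the fit without untreated replicate 3 (against 2.12% of all genes). Members at an unadjusted p under 0.05 for the interaction were 10 over all libraries (against 10.3% of all genes) and 7 to 14 over single omissions. For the remaining counts over single omissions and for the replicate block, the shares of all genes are not given here. Members whose number sets did not overlap were 4 over all libraries (9.8% of all genes) and 4 to 7 over single omissions. They were 26 in untreated (43.5% of all genes) and 18 in BT-11 libraries alone (30.4% of all genes). Positive members were 41, and 38 to 45 over single omissions; positive beta genes were 11, and 9 to 11.

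The replicate block called 0 members and gave 10 members at an unadjusted p under 0.05; same-numbered libraries correlated by 0.0677 to 0.264 in their deviations and did not all match their own number best, so the numbers were not taken as pairs. It turned Pcdhac1 to 0.003, as limma-voom did to 0.044.

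Log2 fold changes turned sign in numbers 4 and 5 alone for Cdh11 (-0.002), Cdh13 (-0.14), Pcdh17 (-0.27), Pcdh18 (0.085), Pcdha3 (-0.21), Pcdha8 (0.081), Pcdhac1 (0.39), Pcdhga2 (-0.007) and Pcdhga5 (0.46). In numbers 1 to 3 alone they did for Pcdh11x (0.031), Pcdh19 (0.26), Pcdh7 (0.24), Pcdha9 (0.17) and Pcdhgc3 (0.10), and without untreated replicates 2 and 5 for Pcdha8 (0.008) and Pcdhga12 (-0.11). Without untreated replicates 1 and 2 they did for Cdh11 (-0.011), Cdh13 (-0.037), Pcdh17 (-0.12), Pcdha3 (-0.082), Pcdhac1 (0.052) and Pcdhga5 (0.11). Single omissions spanned 0 for Cdh11 (-0.003 to 0.064), Pcdh17 (-0.021 to 0.19), Pcdh19 (-0.20 to 0.017), Pcdh7 (-0.25 to 0.033), Pcdha1 (-0.38 to 0.023), Pcdha8 (-0.20 to 0.11), Pcdha9 (-0.23 to 0.13), Pcdhac1 (-0.30 to 0.43), Pcdhga12 (-0.007 to 0.19), Pcdhga2 (-0.03 to 0.10) and Pcdhga5 (-0.17 to 0.036). The causes were not tested. At the depth of these libraries, members at a few CPM rest on few counts.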
